A study of Mus musculus with 30 samples.

Results

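The 9 genes described here, Pmp22, Mbp, Prx, Mag, Gldn, Ncmap, Cldn19, Gjc3 and Sox10, are genes of the Schwann cell and of peripheral myelin, taken as a fixed list of symbols from a table of 33076 genes. All 9 were matched to 1 identifier each in the table. They were measured by bulk RNA sequencing in the diaphragm of 15 male mice, each of which gave 1 perisynaptic library, cut from the strip that holds the neuromuscular junctions, and 1 extrasynaptic library, cut from muscle without junctions. SBMA mice carried BACfxAR121, a transgene that models spinal and bulbar muscular atrophy, a disease caused by a polyglutamine expansion in the androgen receptor. Controls were littermates with the same transgene plus HSA-Cre, a recombinase driven in skeletal muscle by the actin promoter, and the submitters describe them as muscle-rescued. Both groups therefore carried the transgene, with Cre acting in muscle and not in Schwann cells by design, and no library analysed here came from a mouse without it. Mice were 15 or 26 weeks old, with 4 animals in each group of genotype and age except the controls of 15 weeks, of which there were 3. This made 30 libraries in 8 groups, with 16280873 to 34694446 counts per library.

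Schwann cells wrap motor axons up to the junction. Myelinating Schwann cells make compact myelin from proteins such as peripheral myelin protein 22 and myelin basic protein, while non-compact regions and nodes of Ranvier use other adhesion and junction proteins. The nerve terminal itself is covered by terminal Schwann cells, which do not myelinate. The transcription factors Sox10 and Egr2 drive the myelin genes. Since the tissue was sequenced in bulk, fewer Schwann cells and less RNA per Schwann cell cannot be told apart in any value below.

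On GRCm38 (mm10), the GENCODE vM21 annotation places Pmp22 (ENSMUSG00000018217.12) at chr11:63128982-63159547, Mbp (ENSMUSG00000041607.16) at chr18:82475146-82585637 and Prx (ENSMUSG00000053198.13) at chr7:27499324-27520214. It places Mag (ENSMUSG00000036634.15) at chr7:30899176-30914873, Gldn (ENSMUSG00000046167.5) at chr9:54286486-54341786 and Ncmap (ENSMUSG00000043924.16) at chr4:135369576-135398227. The other 3 are Cldn19 (ENSMUSG00000066058.11) at chr4:119255414-119262438, Gjc3 (ENSMUSG00000056966.7) at chr5:137953461-137963098 and Sox10 (ENSMUSG00000033006.10) at chr15:79154908-79165240. Identifiers are those of the count table; the annotation lists Mbp under a later version, ENSMUSG00000041607.17. Prx and Cldn19 each overlap an opposite-strand gene, Gm15541 over 300 bases and Gm12927 over 90 bases, and without a known strand setting their reads cannot be told apart there.

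Within the perisynaptic libraries the genes were ranked by CPM (counts scaled to library size) per kilobase of exon, with Pmp22 first and Mag last. The length was the union of all annotated exons of a gene, 8.469 kilobases for Mbp and 2.354 for Pmp22. It is not the length of the transcripts present, so the ranking is approximate. Pmp22, which encodes a membrane protein of compact myelin and is also expressed outside nerve, had a median of 30.2 CPM per kilobase over the 15 perisynaptic libraries. Mbp, whose protein holds the cytoplasmic faces of compact myelin together, followed with a median of 4.88 CPM per kilobase, and Prx, which encodes periaxin of the outer Schwann cell membrane, with 3.07 CPM per kilobase. The other 6 members lay between 0.297 CPM per kilobase for Mag and 1.09 CPM per kilobase for Ncmap. In the extrasynaptic libraries Pmp22 stayed at a median of 21.7 CPM per kilobase, whereas Prx was at 0.395 CPM per kilobase.

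The largest contrast in these genes was between the regions. In all 15 animals, each of the 9 genes was higher in the perisynaptic than in the extrasynaptic library. For 8 genes the lowest of the 15 perisynaptic libraries lay above the highest of the 15 extrasynaptic libraries, which held for 0.471% of the 16138 genes tested. Pmp22 was the exception, with ranges that overlapped.

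Among the structural proteins of the sheath, Pmp22 differed least between the regions. Its levels were 59.7 to 84.8 CPM (median 71.1) in perisynaptic libraries and 43.9 to 67.2 CPM (median 51.1) in extrasynaptic ones. Mbp was at 26.9 to 67.4 CPM (median 41.3) in perisynaptic libraries and at 7.95 to 22.5 CPM (median 14.4) in extrasynaptic ones. Prx was at 11.3 to 34.4 CPM (median 17.1) against 1.15 to 5.67 CPM (median 2.20). The 2 regions of Mbp and Prx were thus apart in every library, and within an animal the perisynaptic level was a median of 2.87 times the extrasynaptic level for Mbp and 7.72 times for Prx. Pmp22 had a median ratio within an animal of 1.44.

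The genes of the adaxonal membrane, the node and the junctions of non-compact myelin were close to the detection limit outside the synaptic strip. Cldn19, whose claudin seals the tight junctions between myelin turns, was at 1.72 to 5.83 CPM (median 3.32) in perisynaptic libraries and at 0 to 0.617 CPM in extrasynaptic libraries, with no count in 5 of these 15. Ncmap, which encodes a membrane protein of non-compact myelin, was at 1.69 to 5.09 CPM (median 2.43) against 0 to 0.732 CPM, with no count in 1 extrasynaptic library. Mag, whose protein faces the axon, was at 0.795 to 2.67 CPM (median 1.21) against 0 to 0.462 CPM, with no count in 2. These 3 genes had no count at all only in extrasynaptic libraries. Gldn, which encodes gliomedin, the Schwann cell ligand that gathers sodium channels at nodes, was at 0.839 to 2.64 CPM against 0.0400 to 0.512 CPM. Gjc3, which encodes a connexin of the innermost myelin layer, was at 0.839 to 2.95 CPM against 0.0463 to 0.578 CPM. Sox10, the lineage transcription factor, was at 1.50 to 6.03 CPM (median 3.28) against 0.139 to 0.886 CPM (median 0.546).

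**Figure D1:**
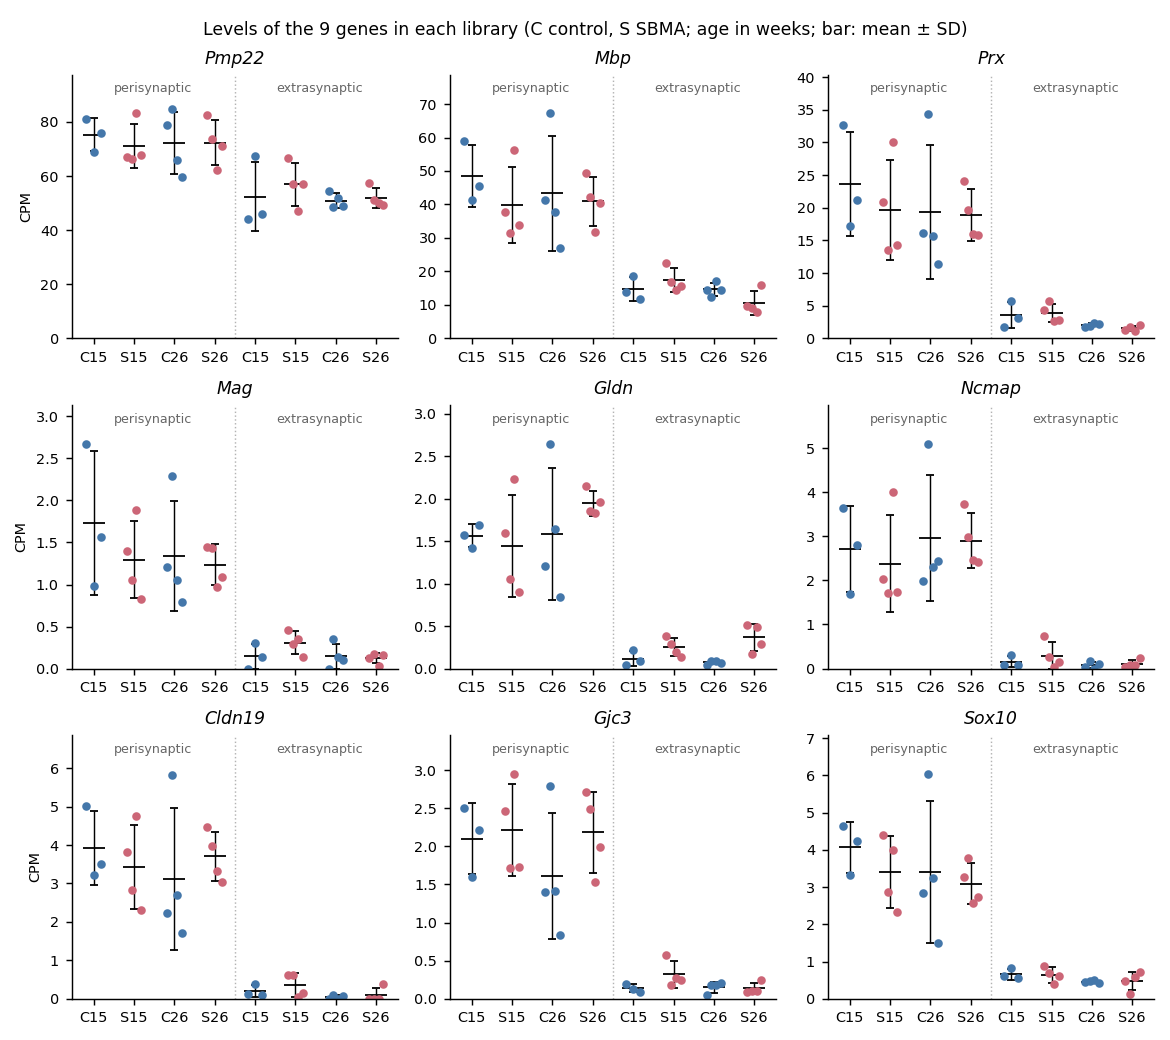
Level of each of the 9 genes in CPM (linear axis from 0) in every library; each point is 1 library, black bars are the group mean and SD, blue is control, red is SBMA, and the dotted line parts perisynaptic from extrasynaptic groups. For 8 genes the perisynaptic points all lie above the extrasynaptic points, and for Pmp22 the ranges overlap (59.7 to 84.8 against 43.9 to 67.2 CPM).

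The regional difference was tested within animals in 1 model of the 30 libraries with a term for each animal (edgeR's quasi-likelihood test, Benjamini-Hochberg adjusted over 16138 genes, threshold 0.05). In each of the 4 groups of genotype and age, 8 of the 9 genes were called higher in the perisynaptic libraries and none lower. Of all genes tested, 0.936% were called higher in controls of 15 weeks, 1.05% in controls of 26 weeks, 0.905% in SBMA mice of 15 weeks and 1.65% in SBMA mice of 26 weeks. The median log2 fold change of the 9 genes was 3.50, 3.16, 2.40 and 3.26 in these groups, in that order, while the median over all genes was between -0.02 and 0.00.

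Cldn19 had the largest fold change of the 9 in each group. Its log2 fold change was 4.25 ± 0.659 (SE; edgeR adjusted p = 0.00179) in controls of 15 weeks and 6.03 ± 0.781 (adjusted p = 0.000199) in controls of 26 weeks. In SBMA mice it was 3.29 ± 0.506 (edgeR adjusted p = 0.00189) at 15 weeks and 5.33 ± 0.641 (adjusted p = 8.51e-05) at 26 weeks. Many extrasynaptic libraries held few or no counts of Cldn19, so the size of this fold change depends on a handful of reads. Ncmap came next in all 4 groups, with 5.08 ± 0.602 in controls and 4.70 ± 0.552 in SBMA mice of 26 weeks.

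Prx differed by 2.74 ± 0.406, 3.12 ± 0.377, 2.31 ± 0.340 and 3.60 ± 0.384 on the log2 scale in controls of 15 and 26 weeks and SBMA mice of 15 and 26 weeks. Mbp differed by 1.72 ± 0.273, 1.50 ± 0.237, 1.19 ± 0.232 and 1.97 ± 0.241 in the same order, and Sox10 by 2.61 ± 0.357, 2.77 ± 0.337, 2.40 ± 0.306 and 2.70 ± 0.324. Sox10 varied least between the groups among these 3 genes. Pmp22 differed by 0.54 ± 0.148, 0.50 ± 0.127, 0.34 ± 0.127 and 0.47 ± 0.127, with edgeR adjusted p values of 0.110, 0.0829, 0.501 and 0.0638. Its unadjusted p was under the threshold in all 4 groups, and the Wald test of DESeq2 called it higher in both control groups and in SBMA mice of 26 weeks.

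In controls of 15 weeks, with 3 animals, the count of called members fell from 8 to 4 when replicate 1 was left out, with Mbp, Mag, Ncmap and Cldn19 no longer called. In SBMA mice of 15 weeks it fell to 6 when replicate 3 or replicate 4 was left out, with Mbp (log2 fold change 0.93 and 1.20) and Mag (1.91 and 1.97) no longer called.

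**Figure D2:**
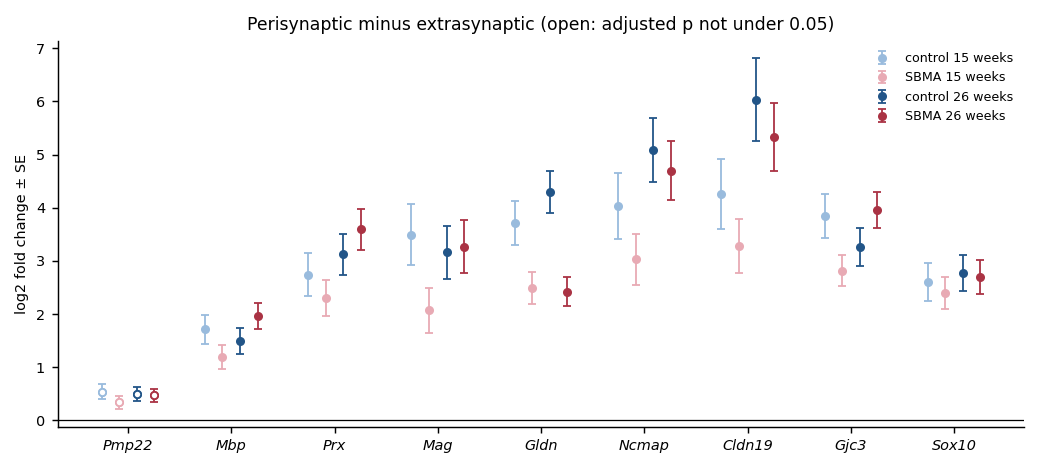
Perisynaptic minus extrasynaptic log2 fold change (points) with its SE (bars) for the 9 genes in the 4 groups of genotype and age, from the edgeR model with animal terms; filled points have an adjusted p under 0.05. All 36 points are above 0, from 0.34 for Pmp22 in SBMA mice of 15 weeks to 6.03 for Cldn19 in controls of 26 weeks, and the 4 open points are those of Pmp22.

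Other genes of peripheral nerve were counted beside the 9. Of 15 further myelin genes that could be tested, 9, 12, 11 and 10 were called higher in perisynaptic libraries of controls of 15 and 26 weeks and SBMA mice of 15 and 26 weeks, and none was lower. Pou3f1, a transcription factor of Schwann cells before myelination, was called in all 4 groups, with log2 fold changes of 1.87 to 2.82. Egr2 was called in controls of 26 weeks (1.33 ± 0.314, edgeR adjusted p = 0.0476) and SBMA mice of 15 weeks (1.51 ± 0.344, adjusted p = 0.0448), but not in the other groups. Pmp2, a myelin lipid-binding protein, was at 0 in 25 of the 30 libraries.

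Some genes of nodes and of the nerve sheath were also called. Kcna1 and Kcna2, potassium channels beside the node, were called higher in all 4 groups, as part of 3, 4, 2 and 3 called of 8 tested node and paranode genes, with none lower. The node gene Ank3, which muscle also expresses, had a median of 195 CPM in perisynaptic and 206 CPM in extrasynaptic libraries. Cldn1 and Moxd1, both of perineurial cells, were called in all 4 groups, as part of 4, 5, 2 and 5 of 6 perineurial genes. Of 11 tested genes of the Schwann lineage, non-myelinating and terminal Schwann cells, 3, 3, 3 and 4 were called higher and none lower. S100b, Cdh19 and Matn2 made up these calls, with Sostdc1 as the fourth in SBMA mice of 26 weeks. Erbb3, the neuregulin receptor subunit of Schwann cells that muscle also expresses, was at 12.8 to 27.8 CPM in perisynaptic and 10.4 to 24.1 CPM in extrasynaptic libraries, with log2 fold changes between 0.00 and 0.33 that were not called.

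Other cell types were compared in the same way. Of the synaptic nuclei genes of muscle, 8, 7, 5 and 5 of 11 were called higher in the perisynaptic libraries. No gene of the lists for muscle fibres, macrophages, endothelium, adipocytes, mesothelium, pericytes or axons was called in any of the 4 groups, and 1 gene of fibroadipogenic progenitors, Dcn, was called in SBMA mice of 26 weeks. The 6 adipocyte genes nevertheless had median log2 fold changes of -4.18 and -1.30 in controls and -1.42 and -1.69 in SBMA mice, at 15 and 26 weeks. Their summed level was 12.4 to 37.4 CPM in perisynaptic and 140 to 655 CPM in extrasynaptic libraries of controls of 15 weeks, without overlap, and the ranges overlapped in the other 3 groups. The part of fat in the regional differences was not tested. The 9 measured genes of axons and neurons summed to 3.99 to 28.1 CPM per library, with Uchl1, a neuronal ubiquitin hydrolase, the highest at up to 26.8 CPM. The highest sum was in an extrasynaptic library of SBMA mice of 26 weeks. Uchl1 had a median of 2.91 CPM in perisynaptic and 5.64 CPM in extrasynaptic libraries, and which cells it came from was not tested. The neurofilament gene Nefl was at no more than 0.175 CPM and the nerve terminal gene Snap25 at 0 in 26 of 30 libraries. Of the oligodendrocyte markers, Mog was at 0 in 22 libraries and Olig2 in 29, while Myrf, which other tissues also express, was at 12.2 to 48.8 CPM.

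The promoters of the members were read because the genes moved together between regions. RefSeq start sites on GRCm38.p6 were read for 7 of the 9 members. This gave 14 windows of 250 bases before to 50 bases after the start. No window was read for Mbp or Sox10, so their promoters are not described here. The stretches before the first listed start of Prx, Mag, Ncmap and Cldn19 are shown, the first 3 because they hold a match and the last because it had the largest regional fold change and holds none. Capitals mark matches to the core letters bound by Sox factors (ACAAAG or ACAATG) or by Egr factors (GCGTGGG or GCGGGGG), read on both strands, so that a match on the other strand appears as its reverse complement.
Prx, chr7:27499074-27499323, plus strand: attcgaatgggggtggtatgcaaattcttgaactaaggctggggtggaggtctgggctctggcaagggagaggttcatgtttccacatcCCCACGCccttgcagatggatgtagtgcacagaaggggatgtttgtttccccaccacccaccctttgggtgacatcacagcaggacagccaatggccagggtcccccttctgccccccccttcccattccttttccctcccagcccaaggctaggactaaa
Mag, chr7:30914864-30915113, minus strand: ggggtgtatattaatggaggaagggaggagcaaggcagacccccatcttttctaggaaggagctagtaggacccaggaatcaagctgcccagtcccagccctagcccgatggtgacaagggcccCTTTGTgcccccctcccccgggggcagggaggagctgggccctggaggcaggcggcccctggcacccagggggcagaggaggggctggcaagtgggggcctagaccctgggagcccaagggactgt
Ncmap, chr4:135398228-135398477, minus strand: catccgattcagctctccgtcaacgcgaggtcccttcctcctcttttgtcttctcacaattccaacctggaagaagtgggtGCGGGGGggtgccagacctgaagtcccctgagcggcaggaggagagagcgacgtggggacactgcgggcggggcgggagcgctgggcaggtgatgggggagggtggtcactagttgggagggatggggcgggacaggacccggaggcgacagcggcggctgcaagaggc
Cldn19, chr4:119255191-119255440, plus strand: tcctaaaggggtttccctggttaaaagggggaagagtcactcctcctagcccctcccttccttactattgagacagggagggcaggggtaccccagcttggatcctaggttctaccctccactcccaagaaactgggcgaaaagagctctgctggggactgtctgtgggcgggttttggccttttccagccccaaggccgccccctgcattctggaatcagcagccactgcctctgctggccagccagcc
The Prx match is of the Egr kind and begins 161 bases before the start, the Ncmap match is of the same kind at 169 bases, and the Mag match is of the Sox kind at 126 bases. Over the 14 windows, 2 held a Sox match, both from overlapping Mag windows, and 3 held an Egr match, from Prx and from both starts of Ncmap. Among 32851 RefSeq windows of the same length, 28.6% held a Sox match and 14.7% an Egr match. No match type overlapped the other in these windows. A match is only a run of letters in a short window, and binding was not measured.

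The study's main question was what the disease transgene does in muscle, and for the 9 genes no difference between genotypes was called in either region at either age. In the perisynaptic libraries 0 of 9 were called at 15 weeks, when 0.21% of all genes were called in either direction, and 0 of 9 at 26 weeks, when 14% were. No member had an unadjusted p under 0.05 in these 2 comparisons (edgeR), and DESeq2 also called 0. The SBMA minus control log2 fold changes lay between -0.45 (Mag) and 0.05 (Gjc3) at 15 weeks, with 8 of 9 below 0, and between -0.17 (Sox10) and 0.41 (Gjc3) at 26 weeks, with 6 of 9 below 0. The median of the 9 was -0.22 at 15 weeks and -0.05 at 26 weeks, beside -0.01 and -0.02 over all genes.

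At 26 weeks Pmp22 was at 82.5, 73.7, 62.2 and 71.1 CPM in the perisynaptic libraries of SBMA mice and at 78.8, 84.8, 65.7 and 59.7 CPM in those of controls. Its log2 fold change was -0.04 with a 95% interval of -0.32 to 0.25. Prx was at 24.2, 19.6, 15.99 and 15.8 CPM against 16.2, 34.4, 15.6 and 11.3 CPM, and its interval ran from -0.77 to 0.63. The controls were more spread than the SBMA mice for Prx, and both ranges overlapped. Sox10 was at 3.28, 3.78, 2.58 and 2.73 CPM against 2.85, 6.03, 3.25 and 1.50 CPM, with an interval of -0.85 to 0.51. Of the remaining members the widest interval at 26 weeks belonged to Mag, from -0.92 to 0.64. Ranges of SBMA and control libraries overlapped for all 9 genes at both ages in this region, while they were apart for 11.7% of the 16138 genes at 15 weeks and 18.8% at 26 weeks.

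**Figure D3:**
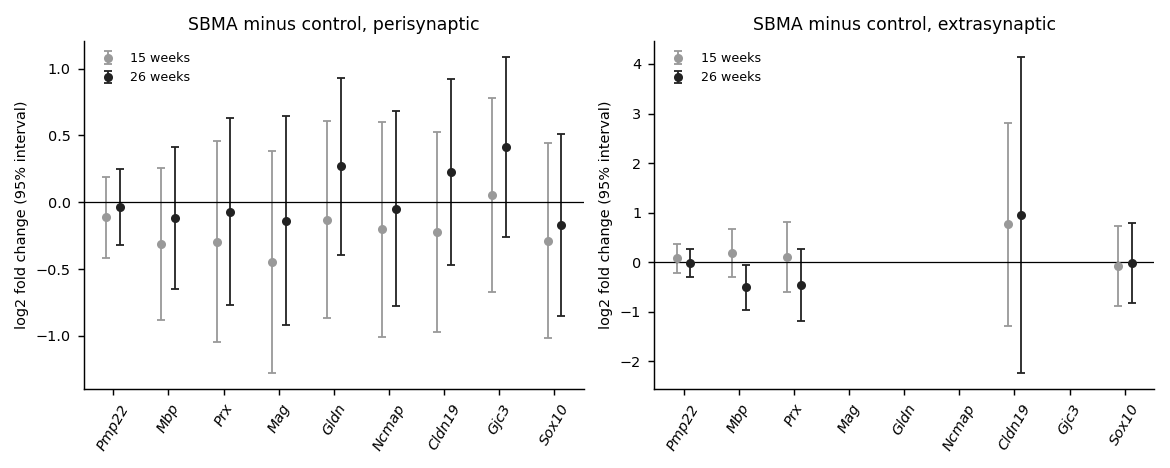
SBMA minus control log2 fold change (points) with 95% intervals (bars) for the 9 genes at 15 weeks (grey) and 26 weeks (black), in perisynaptic (left) and extrasynaptic (right) libraries; the axes differ between panels, and genes without a point were below the count filter. All intervals but that of Mbp in the extrasynaptic libraries of 26 weeks (-0.96 to -0.05) include 0.

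In the extrasynaptic libraries 5 members passed the count filter, and Mag, Gldn, Ncmap and Gjc3 did not. Of the 5, Cldn19 was still near the floor. Its counts at 26 weeks summed to 4 in controls and to 9 in SBMA mice, the latter all in replicate 4. Its 95% interval for genotype at that age ran from -2.24 to 4.15, so its missing call says little. None of the 5 was called at 15 weeks (1.22% of all genes were) or at 26 weeks (32.2%). The nearest to a call was Mbp at 26 weeks, with levels of 9.77, 8.93, 7.95 and 15.8 CPM in SBMA mice and 14.4, 12.5, 17.2 and 14.4 CPM in controls. SBMA replicates 1 to 3 were below every control, and replicate 4 was inside the control range. The log2 fold change was -0.50 ± 0.215 (edgeR unadjusted p = 0.0329, adjusted p = 0.085). Without SBMA replicate 4 of 26 weeks it was -0.77 with an adjusted p of 0.00611, which is a call. That library was the highest of its group, so leaving it out lowers the SBMA level by construction. Mbp was called in 2 of 16 alternative settings, both without this library. Over the 16 settings (edgeR or DESeq2) its adjusted p reached 0.328.

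That replicate held more of a synaptic transcript than its group. Chrne, the adult acetylcholine receptor subunit gene made by the nuclei under the junction, was at 1.71 CPM there and at 0.035 to 0.174 CPM in the other 3 extrasynaptic libraries of SBMA mice of 26 weeks. Chrne also passed 1 CPM in extrasynaptic replicates 1 (4.39 CPM) and 2 (1.09 CPM) of SBMA mice of 15 weeks, whereas perisynaptic libraries held 16.8 to 35.1 CPM. Without these 3 libraries the log2 fold change of Mbp at 26 weeks was -0.75 ± 0.160 (edgeR adjusted p = 0.00507). At 26 weeks this leaves out the same SBMA replicate and no control, so it adds no independent value to the one above. The part of junction-bearing tissue in the result was not tested.

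Gldn went the other way in the same libraries, at counts too low for the filter. It was at 0.512, 0.174, 0.486 and 0.292 CPM in SBMA mice of 26 weeks, from 12, 5, 14 and 7 counts. In controls it was at 0.0463, 0.0877, 0.0898 and 0.0688 CPM, from 1, 2, 2 and 2 counts. The groups did not overlap, and Gldn was the 1 member of 9 for which that held in this comparison, beside 27% of the 16138 genes. Fitted without a count filter, the log2 fold change was 2.22 ± 0.574 (edgeR adjusted p = 0.00663, where 14.4% of all genes were called). The perisynaptic libraries of the same age showed no such gap, with 2.15, 1.85, 1.83 and 1.96 CPM in SBMA mice and 1.21, 2.64, 1.64 and 0.839 CPM in controls. The perisynaptic minus the extrasynaptic genotype difference was -1.87 ± 0.563 on the log2 scale, with an unadjusted p of 0.004 and an edgeR adjusted p of 1.

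Whether genotype acted differently by age or by region was tested for every member. A change of the genotype difference with age was not called by edgeR for any of the 9 in perisynaptic libraries (0.375% of all genes called). Nor was it for the 5 tested in extrasynaptic ones (1.73%). All 9 perisynaptic changes were above 0 (median 0.22), with no unadjusted p under 0.05. Their 95% intervals were wide, such as -0.57 to 1.47 for Cldn19, so a missing call does not show that there was no change. Mbp had the smallest unadjusted p in the extrasynaptic libraries, 0.0418, with a change of -0.70 ± 0.314 and an adjusted p of 0.296. The regional contrast differed between genotypes for 0 of 9 at 15 weeks, when 0% of all genes were called, and for 0 of 9 at 26 weeks (0.0124%). At 15 weeks the contrast was smaller in SBMA mice than in controls for all 9 genes, by 0.20 (Pmp22) to 1.43 (Mag) on the log2 scale, with no unadjusted p under 0.05. This shared direction was lost without the animals whose extrasynaptic library passed 1 CPM of Chrne. At 15 weeks these were SBMA replicates 1 and 2, whose extrasynaptic libraries were the highest of their group for 7 and 2 members. Leaving out the highest extrasynaptic values favours a larger SBMA contrast, and the cut was chosen after seeing the data. It is therefore no separate check of the direction. The change was then above 0 for Pmp22, Prx, Ncmap, Cldn19 and Sox10, up to 0.91 (Cldn19). It stayed below 0 for Mbp, Mag, Gldn and Gjc3, down to -1.02 (Mag). DESeq2 also called 0 of 9 at both ages.

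A few other nerve genes at 26 weeks passed the test between genotypes, in comparisons where 32.2% of all genes were called in extrasynaptic and 14% in perisynaptic libraries. In extrasynaptic libraries Mal, which encodes a lipid raft protein of myelin that epithelia also make, rose by 1.57 ± 0.281 (edgeR adjusted p = 0.00065) and Drp2, which encodes the partner of periaxin, by 1.10 ± 0.133 (adjusted p = 2.42e-05). Sh3tc2, a gene of hereditary demyelinating neuropathy, was lower by -0.70 ± 0.149 (adjusted p = 0.00247), which made 2 higher and 1 lower of 12 tested further myelin genes. In perisynaptic libraries Mal was the 1 of 15 called, at 0.76 ± 0.244 (edgeR adjusted p = 0.0492). Erbb3 rose in both regions, by 0.51 ± 0.142 in perisynaptic and 0.52 ± 0.139 in extrasynaptic libraries. It was the 1 called of 11 Schwann lineage genes in perisynaptic libraries and 1 of 2 higher, beside 2 lower, of 10 in extrasynaptic libraries. The lower ones were Ngfr, the neurotrophin receptor gene (-1.61 ± 0.518), and L1cam, an adhesion gene (-0.43 ± 0.135). Muscle fibre genes fell in the same comparisons, with 11 of 12 lower in each region, and their summed level was 53909 to 60913 CPM in SBMA and 109369 to 119231 CPM in control perisynaptic libraries. Other nerve lists also held calls in perisynaptic libraries of 26 weeks. Of 7 tested repair Schwann cell genes 2 were lower and 0 higher, and of 8 node and paranode genes 1 was higher and 1 lower. Of 4 axon genes 1 was higher, as was 1 of 6 perineurial genes, with 0 lower in either list.

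Age was compared within each genotype and region. Every library of 26 weeks has a lower number in its name than every library of 15 weeks. Age therefore cannot be told apart from anything that goes with these numbers, and what they mark is not given. In controls no gene at all was called between 26 and 15 weeks in either region by edgeR (0% of all genes), while DESeq2 called 40 genes in perisynaptic and 51 in extrasynaptic libraries, none of them a member. In perisynaptic libraries of SBMA mice 0 of 9 members were called, beside 3.95% of all genes, with log2 fold changes between -0.14 (Sox10) and 0.41 (Gldn).

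In extrasynaptic libraries of SBMA mice 2 of the 5 tested members were lower at 26 than at 15 weeks, Mbp and Prx, beside 5.62% of all genes called lower and 12.1% in either direction. All 5 had log2 fold changes below 0 in SBMA mice (median -0.72) and also in controls (median -0.51), where 0 were called. A difference between the genotypes in this change was not called for Prx (-0.56 ± 0.480, edgeR unadjusted p = 0.259) or Mbp. Prx was at 4.39, 5.67, 2.73 and 2.82 CPM at 15 weeks and at 1.28, 1.70, 1.15 and 2.05 CPM at 26 weeks. The ages did not overlap, which held for 21.3% of the 16138 genes, and the log2 fold change was -1.35 ± 0.328 (edgeR adjusted p = 0.0151). Mbp was at 22.5, 16.9, 14.5 and 15.7 CPM at 15 weeks and at 9.77, 8.93, 7.95 and 15.8 CPM at 26 weeks, with a log2 fold change of -0.72 ± 0.214 (edgeR adjusted p = 0.0392). Here replicate 4 of 26 weeks lay inside the range of 15 weeks. Replicates 1 and 2 of 15 weeks, which held the most Prx, were also the ones above 1 CPM of Chrne.

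Both calls lay near the threshold when libraries were left out. The count of called members was 0 without replicate 2 of 15 weeks or replicate 3 of 26 weeks, and 1 when replicate 1 or 4 of 15 weeks or replicate 1 or 2 of 26 weeks was left out. Where the call was lost the log2 fold change was -0.56 to -0.78 for Mbp and -1.20 and -1.11 for Prx. Without the libraries above 1 CPM of Chrne, Mbp was called (-0.76 ± 0.185, edgeR adjusted p = 0.0441) and Prx was not (-1.01 ± 0.377, adjusted p = 0.178). In control extrasynaptic libraries Prx differed between the ages by -0.79 ± 0.348, with an unadjusted p of 0.0389 and an edgeR adjusted p of 0.72, and control replicate 2 of 15 weeks was the highest of its group in Prx, at 5.66 CPM.

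**Figure D4:**
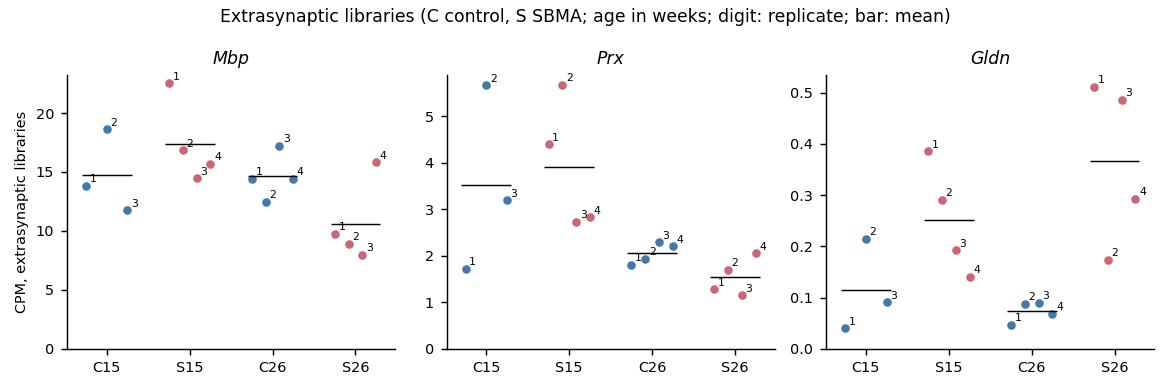
Levels of Mbp, Prx and Gldn in the 15 extrasynaptic libraries, in CPM on linear axes from 0; each point is 1 library with its replicate number, bars are group means, blue is control and red is SBMA, at 15 and 26 weeks. Prx is lower at 26 weeks in every SBMA library, and Gldn is higher in SBMA than in control libraries of 26 weeks.

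Order of the 8 groups was the same in outline for 8 genes, with the 4 perisynaptic groups above the 4 extrasynaptic ones and a gap between them. Within the perisynaptic groups neighbours in the order overlapped for every gene. Control perisynaptic libraries of 15 weeks had the highest mean for 6 genes, among them Prx at 23.6 ± 8.01 CPM (SD, n = 3) and Sox10 at 4.07 ± 0.68 CPM (SD, n = 3). SBMA perisynaptic libraries of 26 weeks had the highest mean of Gldn, 1.95 ± 0.146 CPM (SD, n = 4), and those of 15 weeks the highest of Gjc3, 2.22 ± 0.600 CPM (SD, n = 4). At the other end, SBMA extrasynaptic libraries of 26 weeks had the lowest mean of Prx, 1.54 ± 0.411 CPM (SD, n = 4), and of Mbp, 10.6 ± 3.55 CPM (SD, n = 4).

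In perisynaptic libraries, animals of 1 group differed from each other in most of the 9 genes at once. In control perisynaptic libraries of 26 weeks replicate 2 was highest for 9 of 9 genes and replicate 4 lowest for 8. In SBMA perisynaptic libraries replicate 3 was highest for 8 genes at 15 weeks and replicate 1 for 8 genes at 26 weeks. In control perisynaptic libraries of 15 weeks replicate 2 was lowest for all 9. Extrasynaptic groups were less uniform. Replicate 2 was highest for 8 genes in controls of 15 weeks, but no replicate for more than 4 in controls of 26 weeks. In SBMA mice replicate 1 was highest for 7 genes at 15 weeks and replicate 4 for 6 genes at 26 weeks. Both of these libraries were above 1 CPM of Chrne. After the group means of log2 CPM were taken off, the 36 pairs of members had Pearson correlations of 0.666 to 0.960 over the 15 perisynaptic libraries (median 0.874). In extrasynaptic libraries the same correlations were -0.029 to 0.885 (median 0.485), at counts that were often near 0. The points share their libraries, so these are descriptions of how the 9 genes vary together.

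Chrne varied with them. Over the 15 perisynaptic libraries its correlation with the members, after the group means were taken off, was 0.726 (Gldn) to 0.920 (Gjc3), with a median of 0.856, and before that 0.487 (Gldn) to 0.855 (Mbp). It was the highest in the group in replicate 2 of controls of 26 weeks, at 35.1 CPM, and in replicate 3 of SBMA mice of 15 weeks, at 22.8 CPM, the same libraries that were highest for most members. In SBMA mice of 26 weeks it was highest in replicate 2, at 22.5 CPM, while replicate 1, at 20.3 CPM, was highest for 8 members. In extrasynaptic libraries the correlations after the group means were taken off were 0.200 to 0.854, with a median of 0.575. The summed CPM of the 7 members other than Pmp22 and Mbp was 19.5 to 59.1 in perisynaptic and 2.36 to 8.05 in extrasynaptic libraries. The part of the amount of junction-bearing tissue per library in this spread was not tested.

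**Figure D5:**
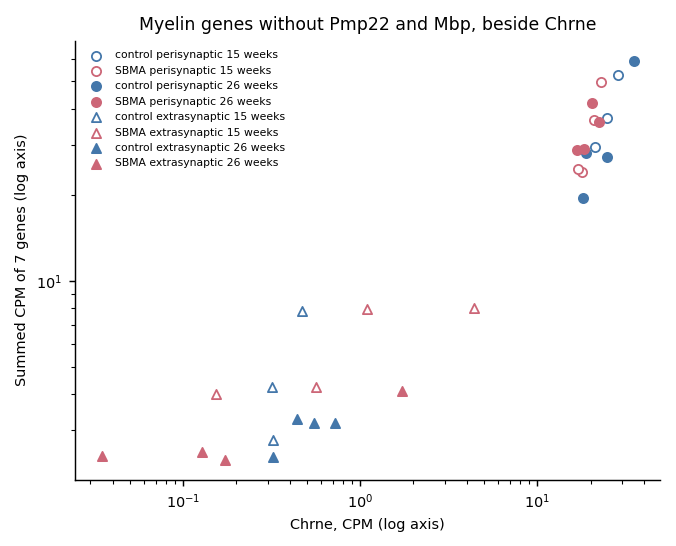
Summed CPM of Prx, Mag, Gldn, Ncmap, Cldn19, Gjc3 and Sox10 against CPM of Chrne in the 30 libraries, both on log axes; circles are perisynaptic, triangles extrasynaptic, blue control, red SBMA, open 15 weeks and filled 26 weeks. Perisynaptic libraries lie at 16.8 to 35.1 CPM of Chrne and 19.5 to 59.1 summed CPM, and 3 extrasynaptic libraries of SBMA mice lie above 1 CPM of Chrne.

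The ratio of Prx to Sox10, a myelin gene set against its lineage factor within a library, was 5.73 ± 1.11 (SD, n = 3) and 5.94 ± 1.16 (SD, n = 4) in control perisynaptic libraries of 15 and 26 weeks. In SBMA perisynaptic libraries it was 5.76 ± 1.32 and 6.14 ± 0.921 (SD, n = 4 each), within the spread of the controls. These ratios are of CPM levels, not per kilobase.

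Of 13099 genes with a mean of at least 1 CPM, members left out, the closest to the mean standardised log2 CPM of the 9 over the 30 libraries was Ache, the junctional acetylcholinesterase, with a Pearson correlation of 0.980. Among the 10 closest were also Apod (0.979), Etv4 (0.969), Crym (0.966), Chrne (0.965), Gatm (0.963), S100b (0.959) and Ufsp1 (0.957). Each of these genes had a higher median in perisynaptic than in extrasynaptic libraries. With group means taken off, the 10 closest included Apod (0.858), Crym (0.810), Kank4 (0.793), Ache (0.781), Fzd2 (0.770), Epb41l4a (0.758), Bcas1 (0.756), Bcam (0.754) and Ufsp1 (0.753).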

How the data were processed

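RNA was extracted with the miRNeasy kit and DNase, and libraries were made with a stranded mRNA kit, per the labels' protocols. The authors deposited raw counts per gene for the 30 libraries, made with featureCounts on mm10, per the submitters' processing notes; which aligner, gene models and strand option were used is not given in the sources used here. Symbols were matched on Ensembl identifiers (33064 of 33076), and the 12 others held 0.00171% of counts. The members, gene lists and rule for named genes (the 9 members, up to 4 called genes of a list and 10 most similar genes) were chosen with earlier results of these data known. Counts were tested with edgeR 4.0.16 (R 4.3.3, quasi-likelihood test, TMM factors, filterByExpr minimum count 10, total 15), with Benjamini-Hochberg adjustment over all genes tested. Genotype and age were fitted within each region over 15 libraries, and region over 30 libraries with a term for each animal, since both libraries of a mouse carry its number in their names (mean correlation of their deviations 0.198 to 0.510 by group). SE is the log2 fold change divided by the root of F. CPM used TMM factors over 30 libraries, and lengths the exon union of GENCODE vM21. The scripts were tested on simulated data. DESeq2 1.42.0 and other settings were alternatives. Some genes of the lists are counted but not reported here by name.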

Additional observations from a re-analysis of the deposited data

Results flagged for a closer look

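Among 54 sets of 4 libraries (a member in a group), 6 held a library whose gap to its nearest neighbour exceeded Dixon's 95% critical value; chance flags about 1 in 20. In SBMA perisynaptic replicate 3 of 15 weeks Pmp22 was at 83.2 CPM, with the others at 66.2 to 67.6, and Ncmap at 4.00 CPM, with the others at 1.72 to 2.03. In control perisynaptic replicate 2 of 26 weeks Ncmap was at 5.09 CPM, with the others at 1.99 to 2.43. In SBMA extrasynaptic replicate 4 of 26 weeks, the library with 1.71 CPM of Chrne, Ncmap was at 0.251 CPM (others 0.0426 to 0.0695), Cldn19 at 0.376 CPM (others 0) and Gjc3 at 0.251 CPM (others 0.0853 to 0.104).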

How the results depend on the processing

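Values under an alternative were counted for members that the reported fit of the same comparison tested. Of these 1700 values none reversed a call, 22 lost it and 16 gained it. In 140 the sign changed where neither fit made a call. The calls of Gldn given next are not among the 16, since the reported fit did not test it there. For SBMA minus control in extrasynaptic libraries of 26 weeks, the count of called members, 0, was 1 with no filter on low counts (Gldn), 2 without the 3 libraries above 1 CPM of Chrne (an alternative chosen after seeing the data; Mbp, and Gldn, which passed the filter in that set through the SBMA libraries in which it was high) and 0 to 1 with each animal left out. For 26 minus 15 weeks in SBMA extrasynaptic libraries the count, 2, was 1 with total-count scaling, 1 with only the groups compared, 1 without the Chrne libraries and 0 to 2 with each animal left out. The regional count in controls of 15 weeks, 8, was 4 to 9 with each animal left out. For genotype by region at 15 weeks the count, 0, was 1 with no filter (Mbp, log2 change -0.54, adjusted p = 0.0224). The cause was not tested. Pmp22 gained the regional call with no filter in all 4 groups. With the replicate block for genotype the count stayed at 0 in both regions and ages, and without the animal term (no replicate block) the regional counts were 8 in all 4 groups. Same-numbered SBMA and control libraries deviated together above 0.1 in 3 of 4 pairs at 26 weeks and 0 of 3 at 15 weeks in each region (mean 0.268 in perisynaptic and 0.115 in extrasynaptic libraries at 26 weeks). Since not every pair passed 0.1, the block was kept out of the reported fits; whether the numbers mark shared handling at 26 weeks was not tested.

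The count over all genes moved more. For genotype in perisynaptic libraries it was 33 (6 to 68; DESeq2 129) at 15 and 2204 (1302 to 4642) at 26 weeks, and in extrasynaptic libraries 190 (2 to 2356; DESeq2 518) and 5007 (3972 to 6286). For age in SBMA extrasynaptic libraries it was 1885 (519 to 2927). For region it was 188 (59 to 568) and 190 (99 to 783) in controls and 153 (76 to 425) and 334 (142 to 1833; DESeq2 505) in SBMA mice. Low counts limit Mag, Gldn, Ncmap, Cldn19 and Gjc3 outside the synaptic strip. The libraries of a group are from separate animals, per their names.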
